A study of Mus musculus with 7 samples.

Results

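The genes of the voltage-gated calcium and sodium channels were examined in RNA-seq data from mouse hippocampus. They were taken as all protein-coding genes whose symbol starts with Cacna1, Cacnb or Cacng, or with Scn and a digit, after Ensembl identifiers had been mapped to the GENCODE M21 annotation. The rule found 36 genes among 55416 identifiers, of which 21928 are protein-coding. These were 10 genes for Cav alpha1 subunits, 4 for Cav beta subunits, 8 for gamma subunits, 10 for Nav alpha subunits and 4 for Nav beta subunits. The Cacna2d genes for the alpha2-delta subunits are not part of the set and were kept in a list of partner genes.

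All animals were age-matched males of the outbred CD1 stock, and the labels name no engineered allele in any group. Control mice were untreated and gave 3 libraries (replicates 1 to 3). DMSO-treated mice received the vehicle alone, injected intraperitoneally 2 times per week for 2 months, and gave 2 libraries (replicates 2 and 3). ONX-0914, an inhibitor of non-constitutive proteasomes such as the immunoproteasome, was injected intraperitoneally at 10 mg/kg, 2 times per week for 2 months, and these mice gave 2 libraries (replicates 1 and 2). The labels do not say whether each library came from a separate animal. Thus, the p-values below measure the spread between these libraries, which may be technical.

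A voltage-gated channel opens when the membrane depolarizes. The alpha subunits form the pore and sense the voltage, and the beta subunits bind them and set their number at the membrane and their gating. Sodium channels start and carry the action potential. Calcium channels couple it to transmitter release, to dendritic calcium signals and to gene expression. Most gamma subunits of the brain are known as transmembrane AMPA receptor regulatory proteins (TARPs), which bring AMPA-type glutamate receptors to the synapse and slow their closing. Hence, this gene family holds both channel subunits and auxiliary subunits of a glutamate receptor.

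The total count on genes lay between 2842675 and 3877006 in 6 libraries and was 13782270 in ONX-0914 replicate 2, where mitochondrially encoded genes took 3.71% of counts against 0.818% to 1.59% elsewhere. By a chi-square of the counts per degree of freedom, the ONX-0914 libraries differed more from each other (76.9) than any other pair of libraries. Pairs within the control and DMSO groups had 2.50 to 3.20. This measure rises with depth, and ONX-0914 replicate 2 was the deepest library. Against the control and DMSO libraries, ONX-0914 replicate 1 had 18.4 to 22.9 and replicate 2 had 47.7 to 59.9. Marker genes also set ONX-0914 replicate 1 apart from its label. Summed over 8 markers of hippocampal pyramidal neurons, CPM was 2597 to 2691 in control and 2749 to 2828 in DMSO libraries, but 657 and 1258 in ONX-0914 replicates 1 and 2. The most abundant of these, Nptx1, stood at 1444 to 1530 CPM in control and at 312 and 526 CPM with ONX-0914, and Neurod6 at 344 to 376 and at 17.3 and 192 CPM. All 8 markers lay below every control library in replicate 1. In replicate 2, 5 of them did, while the other 3, Wfs1 (190 CPM), Bok (55.4 CPM) and Spink8 (20.9 CPM), lay above every control library. In replicate 1, all 10 thalamus and midbrain markers and all 9 striatum markers lay above every control library, with sums of 943 and 1200 CPM against control ranges of 73.5 to 86.7 and 170 to 201 CPM. Ppp1r1b reached 736 CPM and Prkcd 313 CPM there. Pax7 and Irx2, which mark midbrain and thalamic territories, had 0 counts in all 5 control and DMSO libraries and stood at 17.5 and 11.3 CPM in that library. In replicate 2 the same 2 lists summed to 82.4 and 134 CPM, but both were split. Of the 10 thalamus and midbrain markers, 4 lay above and 2 below every control library there. Of the 9 striatum markers, 4 lay above and 2 below. Markers of interneurons summed to 695 to 745 CPM in control and to 1355 and 938 CPM with ONX-0914, but the list was split. Of its 9 genes, 4 lay above (Gad1, Gad2, Slc32a1 and Pvalb) and 3 below (Sst, Lhx6 and Cck) every control library in replicate 1. In replicate 2, 5 lay above (Cck, Gad1, Sst, Vip and Npy) and 4 below (Gad2, Pvalb, Slc32a1 and Lhx6). Markers of dentate granule neurons summed to 301 to 375 CPM in control and to 101 and 359 CPM with ONX-0914, with 6 of 7 below control in replicate 1 and 3 above and 3 below it in replicate 2. Oligodendrocyte markers ranged from 4651 to 7089 CPM in control and were at 9286 and 4126 CPM with ONX-0914. In the DMSO libraries they were at 7349 and 8717 CPM, both above every control library. RNA of a whole tissue cannot tell fewer cells of a type from less RNA per cell.

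**Figure D1:**
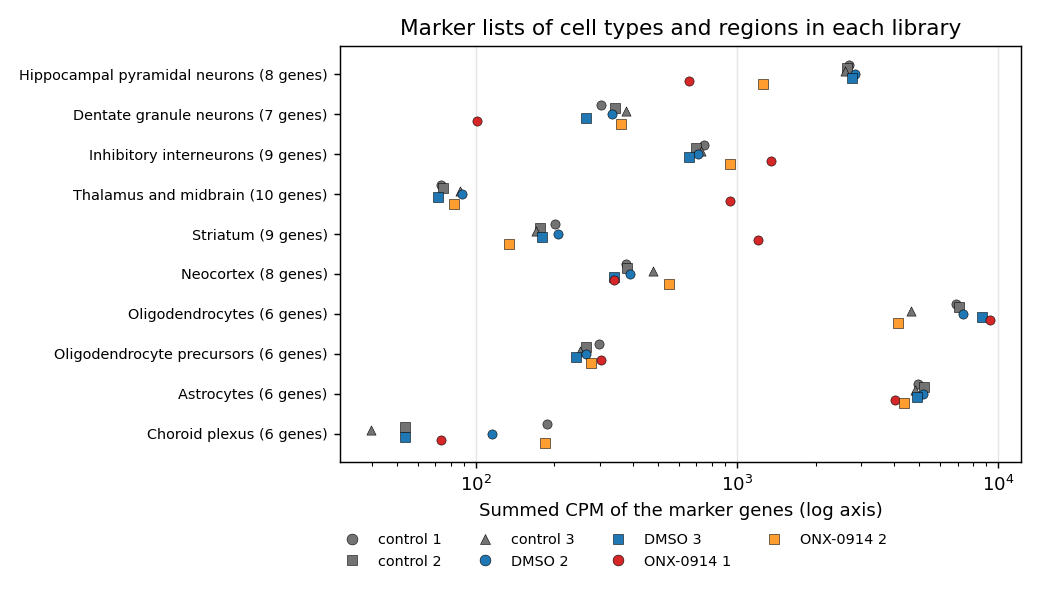
Summed CPM (log axis) of 10 lists of marker genes in each of the 7 libraries, 1 point per library. Pyramidal neuron markers lie lowest in both ONX-0914 libraries (657 and 1258 CPM), and markers of thalamus and midbrain and of striatum lie highest in ONX-0914 replicate 1 (943 and 1200 CPM).

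Of the 36 genes, 5 were below 10 counts summed over the 7 libraries. These were Cacna1s with 1 count, Cacng1 with 1 count and Scn4a with 3 counts, which serve skeletal muscle, and Scn10a with 1 count and Scn11a with 7 counts, which are known from sensory neurons. Cacna1f, the L-type channel of the retina, reached 17 counts in all. It was likewise left out by the filter on low counts. In a library with no count of a gene, the 3 counts that a count of 0 allows correspond to 0.197 to 1.07 CPM, a limit that covers counting error only. The remaining 30 genes had at least 1 count in every library and were tested among 13152 genes.

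Levels were compared between genes as CPM per kilobase of exon, where CPM is reads of a gene scaled to a common number of reads on genes, with TMM-scaled library sizes. Among the genes with high values in control hippocampus were the Nav beta gene Scn2b at 103 ± 3.72 CPM per kb (SD, n = 3), Cacng8 at 66.6 ± 3.94, Cacnb3 at 45.8 ± 1.21 and Scn3b at 38.0 ± 2.00 CPM per kb. Scn2b, Cacng8 and Cacnb3 stood above every pore-forming gene in all control libraries. Among the pore-forming genes, Scn2a (35.1 ± 2.73 CPM per kb) and Scn8a (23.4 ± 0.902) were highest, and Scn1a stood at 13.2 ± 1.86. The order of Cav alpha1 genes began with Cacna1e (14.4 ± 0.452), Cacna1b (12.2 ± 1.35) and Cacna1i (11.8 ± 2.24 CPM per kb). The control libraries of Scn2b all lay above those of Cacng8, those of Cacng8 above those of Cacnb3, and those of Cacnb3 above those of Scn3b. From Scn3b through Scn2a to Cacng7, from Scn8a to Cacnb1, and from Cacnb4 through Cacna1e, Scn1a, Cacna1b, Cacna1i and Cacng2 to Cacng3, the ranges of neighbours overlapped, so that the order among them is not resolved. The rank of Cacnb2 depended on the length used, with 5.42 CPM per kb over all its exons and 14.3 over its longest transcript.

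**Figure D2:**
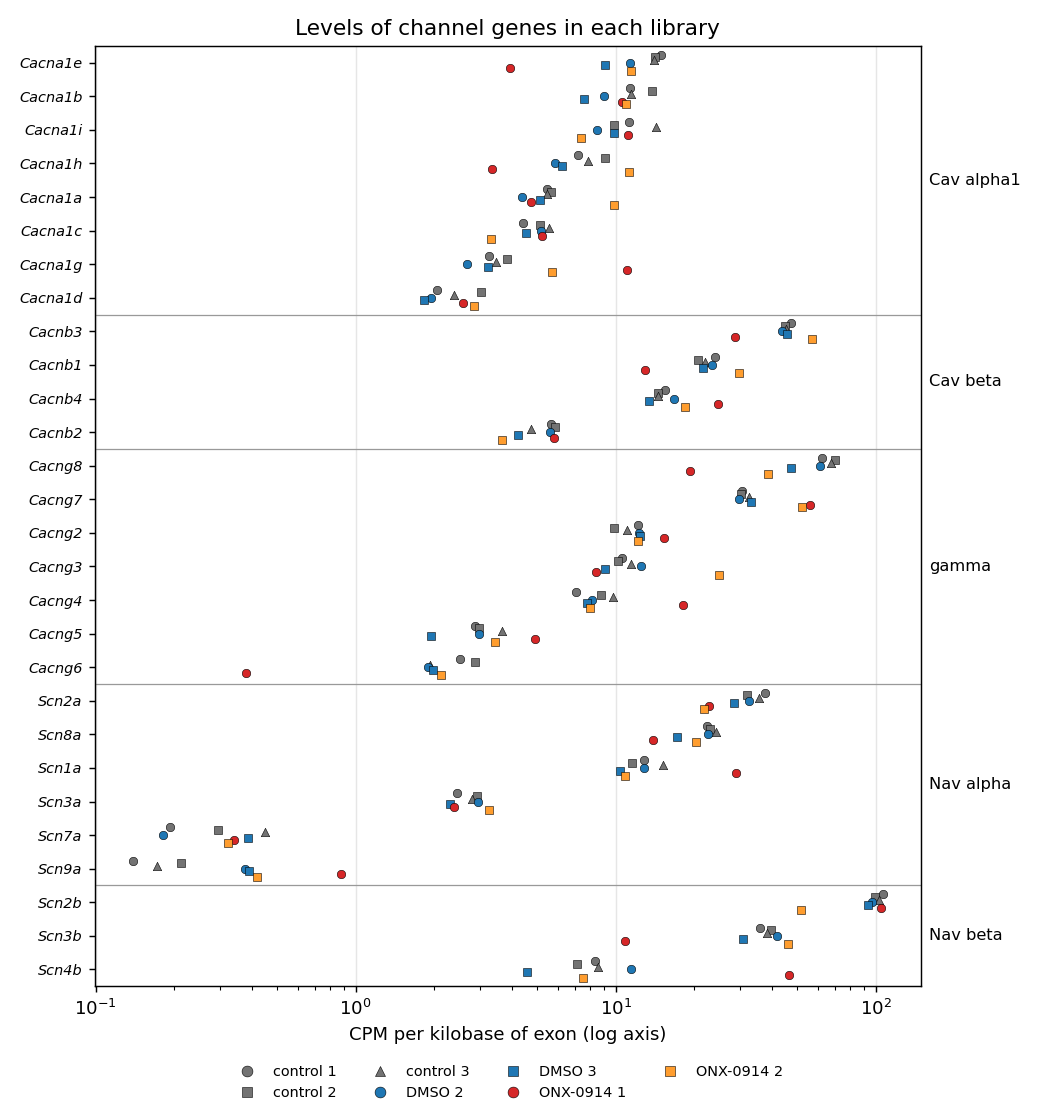
CPM per kilobase of exon (log axis) for 28 of the 30 tested genes, grouped by subunit family and ordered by the control mean, 1 point per library. Scn2b at 103 and Cacng8 at 66.6 CPM per kb are high in control, and Scn9a at 0.174 CPM per kb is the lowest gene shown.

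Expression was then compared between groups with the quasi-likelihood test of edgeR over all 13152 genes, and a gene with an FDR under 0.05 was called a DEG. Between ONX-0914 and control, none of the 30 channel genes was a DEG, beside 15 DEG among all genes (0.114%). At an unadjusted p under 0.05 there were 8 channel genes, against 18.6% of all genes. Only Cacng7 had an FDR under 0.1 in this comparison. DESeq2 called 4 channel genes, with Cacna1g and Cacng7 higher and Cacng8 and Scn2a lower after ONX-0914, where it called 2.95% of all genes, and limma voom called 0, with 7 at an unadjusted p under 0.05. Without the filter on low counts, edgeR called Cacna1g, Cacng7, Cacng8, Scn4b and Scn9a, beside 2.15% of all genes. The fitted Log2FC of the 30 genes had a median of -0.07, with 14 above and 16 below 0, and the median over all genes was 0.05.

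The positions of the libraries give the same comparison without a model. Both ONX-0914 libraries lay above all control libraries for 5 of the 30 genes (Cacna1g, Cacnb4, Cacng2, Cacng7 and Scn9a), against 16.9% of all genes tested. The opposite position, below every control library, was held by 5 (Cacna1b, Cacna1e, Cacng8, Scn2a and Scn8a), against 16.3%. Relative to all 5 control and DMSO libraries, 4 genes were above (11.3% of all genes) and 2 below (11.4%), namely Cacna1g, Cacnb4, Cacng7 and Scn9a above and Cacng8 and Scn2a below. For a further 10 genes (33.3%), the ONX-0914 libraries lay on opposite sides of all control libraries, against 23.4% of all genes. This group included Cacna1a, Cacna1h, Cacnb1, Cacnb3, Cacng3, Scn1a, Scn3a and Scn3b. Accordingly, the spread between the ONX-0914 libraries had a median of 0.97 on the log2 scale over the channel genes and 0.56 over all genes, whereas pairs of control libraries had medians of 0.11 to 0.18 over the channel genes and the DMSO pair 0.22. In ONX-0914 replicate 1, 5 channel genes were more than 2-fold above the control mean and 5 more than 2-fold below it, where 5.05% and 5.69% of all genes were. In replicate 2, 2 were above and 1 below by that margin, against 8.86% and 9.38%.

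**Figure D3:**
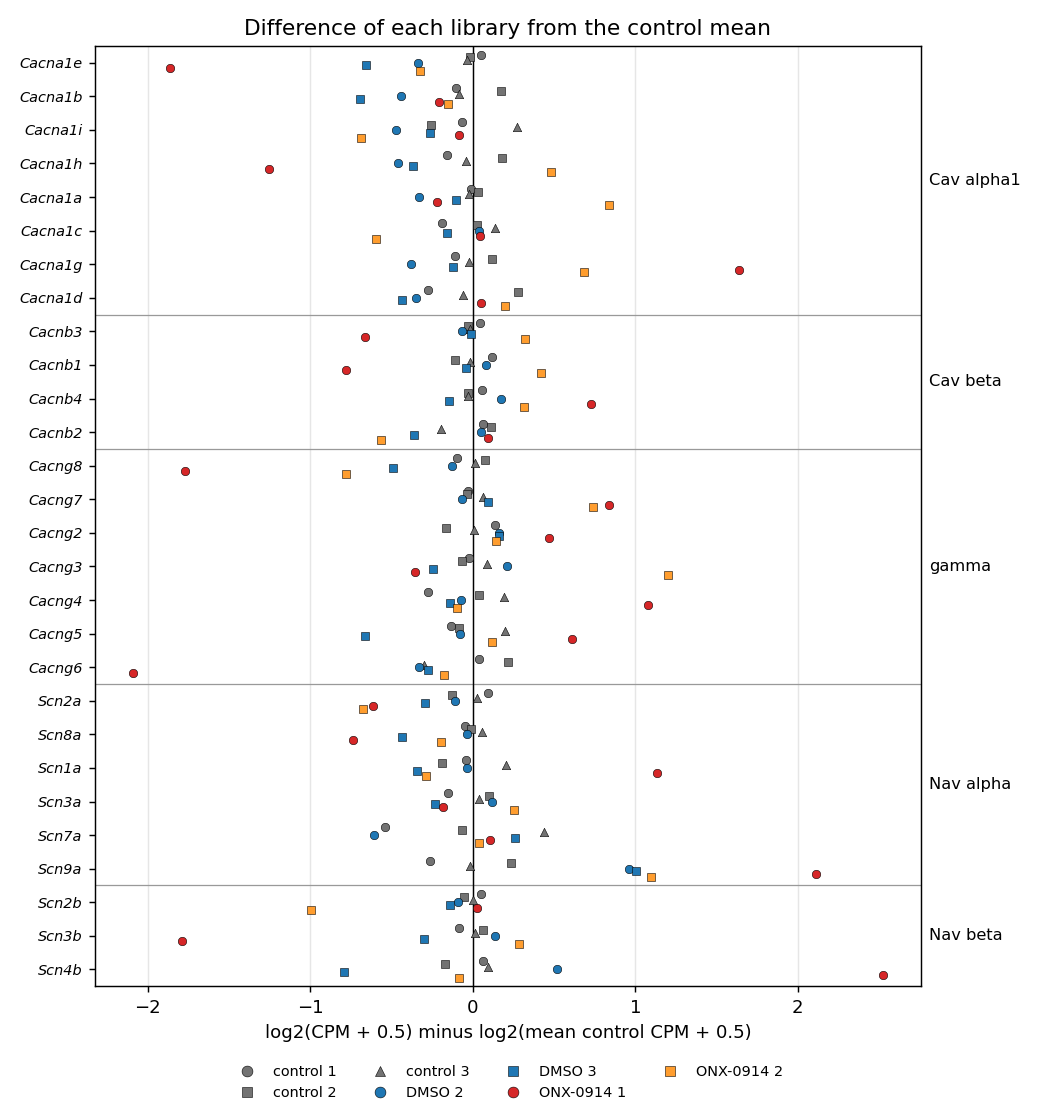
Difference of log2(CPM + 0.5) in each library from that of the mean control CPM, for 28 of the 30 tested genes by subunit family, 1 point per library and 0 marking the control mean. The ONX-0914 points lie far apart for Scn4b, Cacng3, Scn3b and Cacna1h, and close together for Cacng7, Scn2a and Cacna1b.

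The gamma subunits held the gene with the lowest FDR (Cacng7) and the gene with the most negative Log2FC (Cacng8) of this comparison. Cacng8, a TARP that is abundant in hippocampus, and Cacng7, a TARP that is more widespread in the brain, are neighbouring genes on chromosome 7, with Cacng6 next to them. The last 10 codons of the longest annotated coding sequence are shown for the neighbours and for Cacng2, the founding TARP (stargazin). The Cacng2 protein binds the scaffold of the synapse through its C terminus. Capitals mark the last 4 codons before the stop codon, and the sequences are from GENCODE M21 transcripts.
Cacng2: aacacagccaaccgccggACCACGCCCGTA
Cacng8: aacacgctcaacaggaaaACCACGCCCGTG
Cacng7: gaccatctccacatctccACTTCGCCGTGC
Cacng6: ctgtgccccaagtggggtGGCCCAACCGCC
The last 4 residues encoded by Cacng8 are the same as in Cacng2, Cacng3 and Cacng4, differ at 2 positions in Cacng7 and 3 in Cacng5, and at all 4 in Cacng1 and Cacng6.

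Cacng7 was at 74.5, 74.1 and 79.3 CPM in control, at 72.7 and 81.0 CPM in DMSO and at 136 and 127 CPM in ONX-0914 libraries. Both ONX-0914 libraries lay above all others, and they differed little from each other. The Log2FC was 0.79 (SE 0.152, FDR = 0.0759) against control and 0.78 (SE 0.170, FDR = 0.145) against DMSO. Cacng8 was at 146, 164 and 158 CPM in control, at 143 and 111 CPM in DMSO and at 45.3 and 90.9 CPM in ONX-0914 libraries. The ONX-0914 values were the lowest of all, with replicate 1 under replicate 2. The Log2FC was -1.19 (SE 0.289, FDR = 0.124) against control and -0.89 (SE 0.308, FDR = 0.267) against DMSO. The share of Cacng8 in the summed CPM per kb of the gamma genes was 48.7% to 51.8% in control, 47.4% and 41.7% in DMSO and 15.8% and 27.4% in ONX-0914 libraries. That of Cacng7 was 22.4% to 23.8%, 23.1% and 29.2%, and 45.6% and 36.8%, respectively. Thus, the log2 ratio of Cacng7 to Cacng8 was between -1.15 and -0.97 in control, -0.98 and -0.46 in DMSO, and 1.59 and 0.48 in ONX-0914 libraries. This pair was singled out after its values had been seen, and the ratio was not tested. Of the 8 pyramidal neuron markers, 8 lay below control in ONX-0914 replicate 1, and in replicate 2 there were 5 below and 3 above. Their part in these values was not tested.

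No other gamma gene had both ONX-0914 libraries above or below all 5 control and DMSO libraries. Cacng4, a TARP known from glia and immature neurons, was at 25.2 to 35.1 CPM in control, 29.1 and 27.7 in DMSO and 65.1 and 28.6 CPM in ONX-0914 libraries, and its Log2FC of 0.59 (SE 0.331, FDR = 0.363) turned to -0.11 without replicate 1. Cacng3, a TARP of the forebrain, had its low value in the other library, with 23.3 and 69.3 CPM in ONX-0914 replicates 1 and 2 around 28.5 to 31.8 CPM in control. Cacng2 was at 84.4 and 67.3 CPM with ONX-0914 and 54.3 to 67.1 CPM in control. Cacng5 had a Log2FC of 0.37 (SE 0.282) and Cacng6 of -0.69 (SE 0.540), the latter at 3 to 64 counts per library.

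**Figure D4:**
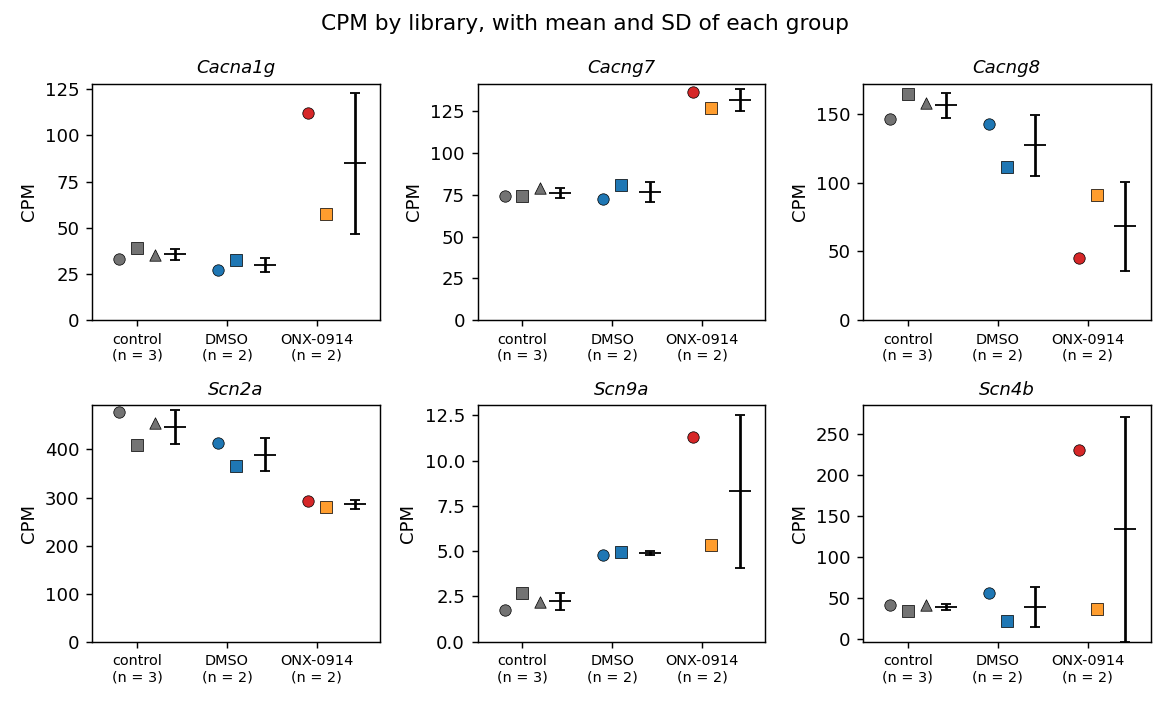
CPM in each library for Cacna1g, Cacng7, Cacng8, Scn2a, Scn9a and Scn4b, with the mean and SD of each group beside the points (control n = 3, DMSO n = 2, ONX-0914 n = 2). Both ONX-0914 libraries lie above all others for Cacna1g, Cacng7 and Scn9a and below all others for Cacng8 and Scn2a, and for Scn4b only replicate 1 does (231 CPM).

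Among the pore-forming Cav alpha1 genes, Cacna1g had the largest difference. It encodes a T-type channel, which opens near rest and is known for the burst firing of thalamic relay neurons. Cacna1g was at 33.0, 38.8 and 35.1 CPM in control, 27.2 and 32.7 CPM in DMSO and 112 and 57.7 CPM in ONX-0914 libraries. Both ONX-0914 values lay above all others, and they were further apart from each other than the lower of them was from the control libraries. The Log2FC was 1.24 (SE 0.275, FDR = 0.105) against control and 1.49 (SE 0.314, FDR = 0.133) against DMSO. Leaving out ONX-0914 replicate 1 gave 0.69, and leaving out replicate 2 gave 1.65. The summed thalamus and midbrain markers were high in replicate 1. In replicate 2 the sum lay within 71.8 to 88.4 CPM, the span of the control and DMSO libraries. There, 4 of the 10 markers (Slc17a6 at 39.7 CPM among them) lay above every control library and 2 (Prkcd at 25.0 CPM among them) below. Their part in the value of Cacna1g was not tested. The other T-type genes had other patterns. Cacna1h was at 32.6 and 110 CPM with ONX-0914, on either side of 70.3 to 88.8 CPM in control, and Cacna1i at 110 and 72.4 CPM against 97.7 to 141 CPM.

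Cacna1e encodes the R-type channel, which carries calcium in dendrites and spines of pyramidal neurons. It was at 376, 359 and 354 CPM in control, 287 and 230 CPM in DMSO and 99.5 and 290 CPM in ONX-0914 libraries. All 4 libraries from injected mice were under every control library, and ONX-0914 replicate 1 was lowest. The Log2FC was -0.89 (SE 0.386, FDR = 0.267) for ONX-0914 against control, -0.32 without replicate 1 and -1.87 without replicate 2. The share of Cacna1e among the Cav alpha1 genes was 21.7% to 24.8% in control, 23.2% and 19.2% in DMSO and 7.49% and 18.3% in ONX-0914 libraries. That of Cacna1g was 5.37% to 5.91%, 5.49% and 6.80%, and 20.98% and 9.05%, respectively. Cacna1a, which forms the P/Q-type channel of presynaptic terminals, was at 62.0 to 64.3 CPM in control and at 53.9 and 113 CPM with ONX-0914. Of the L-type genes, Cacna1c was at 110 and 70.5 CPM against 93.7 to 118 CPM in control, and Cacna1d at 32.6 and 36.1 CPM against 25.9 to 38.3 CPM.

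The beta subunits bind inside the cell to the linker between the first domains of the Cav alpha1 protein. Cacnb4, the form known from cerebellum and thalamus, was at 139, 131 and 131 CPM in control, 151 and 121 CPM in DMSO and 222 and 166 CPM in ONX-0914 libraries. Both ONX-0914 libraries lay above all others, and the Log2FC was 0.54 (SE 0.186, FDR = 0.199). Cacnb3, the most abundant beta gene, and Cacnb1 were both low in ONX-0914 replicate 1 (116 and 58.6 CPM) and high in replicate 2 (229 and 136 CPM), with 180 to 189 and 93.6 to 110 CPM in control. Cacnb2 was at 76.7 and 48.2 CPM against 62.5 to 77.6 CPM. The share of Cacnb4 in the beta genes was 16.77% to 16.96% in control and 34.2% and 16.98% in ONX-0914 libraries.

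The Nav alpha genes of the brain are close paralogs, and 4 of them (Scn1a, Scn2a, Scn3a and Scn9a) lie on chromosome 2, as does Scn7a. Over whole transcripts, 0.876% (Scn1a), 1.03% (Scn2a), 2.22% (Scn3a) and 1.44% (Scn9a) of 100-base windows, the read length, were found unchanged in another gene, in each case another of these 4. No window of Scn8a was shared. Reads from these windows cannot be assigned to 1 gene.

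Scn2a, the main Nav channel of excitatory axons, was at 477, 409 and 454 CPM in control, 414 and 365 CPM in DMSO and 292 and 279 CPM in ONX-0914 libraries. The ONX-0914 values were the lowest of all and differed by little. The Log2FC was -0.64 (SE 0.171, FDR = 0.136) against control and -0.45 (SE 0.184, FDR = 0.324) against DMSO. It was of similar size without ONX-0914 replicate 1 (-0.68) and without replicate 2 (-0.61). Scn8a, the channel of mature initial segments and nodes, was at 356, 365 and 384 CPM in control, 359 and 272 CPM in DMSO and 220 and 322 CPM in ONX-0914 libraries. Both ONX-0914 values were below the controls, but DMSO replicate 3 lay between them (Log2FC -0.44, SE 0.218, FDR = 0.310). Scn1a, the channel of fast-spiking interneurons, was at 144, 129 and 170 CPM in control and at 324 and 121 CPM with ONX-0914, so that its share of the Nav alpha genes was 16.4% to 19.3% in control and 41.2% and 18.96% in ONX-0914 libraries. The share in replicate 2 lay within the control range. In replicate 1 Pvalb, a marker of such interneurons that thalamic neurons also express, stood at 354 CPM against 111 to 136 CPM in control, and at 53.6 CPM in replicate 2. The interneuron list was split in replicate 1, with 4 of 9 genes above every control library and 3 below. Those below were Sst, Cck and Lhx6, the last at 5.51 CPM. The part of Pvalb was not tested.

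Scn9a, best known from pain-sensing neurons, was scarce, with 5, 10 and 8 counts in control, 18 and 14 in DMSO and 45 and 81 in ONX-0914 libraries. In CPM it stood at 1.77, 2.71 and 2.19, at 4.81 and 4.98 and at 11.3 and 5.33. All 4 libraries from injected mice lay above all control libraries. The Log2FC was 1.78 (SE 0.451, FDR = 0.133) for ONX-0914 and 1.11 (SE 0.513, FDR = 0.9999) for DMSO against control, and 0.67 (SE 0.458, FDR = 0.487) for ONX-0914 against DMSO. The exons of Scn9a overlap those of Gm13629 on the opposite strand, which had 4, 10 and 6 counts in control, 5 and 3 in DMSO and 27 and 42 in ONX-0914 libraries. The kit keeps the strand, but the strand setting of the counting is not given in the sources used here, so the reads of the 2 genes may not be separated. Scn3a, mostly known from the developing brain, was at 29.8 and 40.6 CPM with ONX-0914 and 30.5 to 36.4 CPM in control. Scn7a, a sodium-sensing channel, had 83 counts over all libraries and a Log2FC of 0.04 (SE 0.50).

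**Figure D5:**
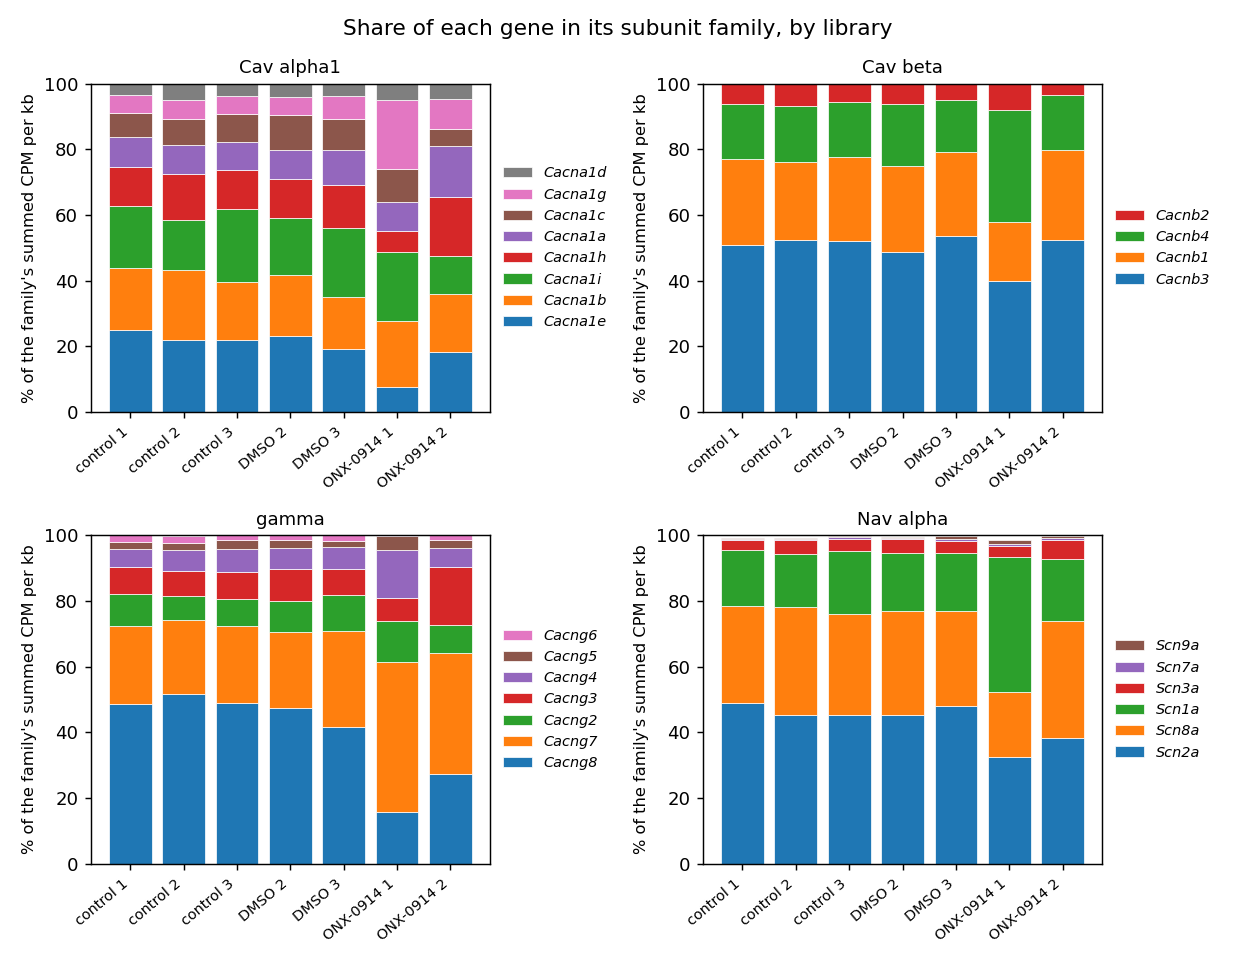
Share of each gene in the summed CPM per kb of its subunit family, as stacked bars for each of the 7 libraries, for the Cav alpha1, Cav beta, gamma and Nav alpha genes (some genes under 1% in control are left out). Cacng8 takes 41.7% to 51.8% of the gamma bar without ONX-0914. The first ONX-0914 bar has larger shares of Cacna1g, Cacnb4, Cacng7 and Scn1a, at 20.98%, 34.2%, 45.6% and 41.2%.

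The Nav beta subunits are single-span membrane proteins that alter gating and also act in cell adhesion. Scn4b, which supports resurgent current and is known for its expression in striatum, gave the widest difference between replicates of any member. It was at 41.5, 35.3 and 42.5 CPM in control, 57.2 and 22.7 CPM in DMSO and 231 and 37.5 CPM in ONX-0914 libraries. Only ONX-0914 replicate 1 lay above the other libraries, while replicate 2 lay within the control range. The Log2FC was 1.74 (SE 0.648, FDR = 0.217) against control, 2.54 without replicate 2 and -0.08 without replicate 1. The summed striatum markers were high in the same library and not in replicate 2, as given above. In replicate 2, 4 of the 9 lay above and 2 below every control library. The part of these markers was not tested. Scn3b, at 196 to 217 CPM in control, was low in replicate 1 (59.6 CPM) and high in replicate 2 (253 CPM). Scn2b was at 491 CPM in replicate 1 and 241 CPM in replicate 2, with 463 to 498 CPM in control.

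The comparison of DMSO with control asks what the vehicle injections alone did. None of the 30 channel genes was a DEG in edgeR, beside 2 DEG among all genes (0.0152%), and DESeq2 and limma voom called none. At an unadjusted p under 0.05, edgeR gave 1 channel gene, against 2.65% of all genes, and DESeq2 and limma voom gave 1 each. This gene was Cacna1b, the N-type channel of presynaptic terminals, at 113, 137 and 114 CPM in control, 89.5 and 75.0 CPM in DMSO and 105 and 109 CPM in ONX-0914 libraries. Both DMSO libraries lay below all others, with a Log2FC of -0.56 (SE 0.176, FDR = 0.9999). Cacna1d, an L-type channel, was at 25.9, 38.3 and 30.2 CPM in control, 24.6 and 23.1 CPM in DMSO and 32.6 and 36.1 CPM in ONX-0914 libraries, with a Log2FC of -0.40 (SE 0.223, FDR = 0.9999) for DMSO against control. In a fit of the control and DMSO libraries alone, Cacna1b and Cacna1e were called lower in DMSO, beside 1.14% of all genes.

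The DMSO libraries were both under every control library for 10 of the 30 genes (33.3%), against 14.99% of all genes, and above for 2, Cacng2 and Scn9a, against 15.7%. The 10 genes included Cacna1a, Cacna1b, Cacna1d, Cacna1e, Cacna1g, Cacna1h, Cacna1i, Cacng8 and Scn2b. Hence 7 of the 8 tested Cav alpha1 genes were below control in both DMSO libraries, and the fitted Log2FC of all 8 was below 0, with a median of -0.39. The sum of the family was 60.0, 64.8 and 64.5 CPM per kb in control, 49.0 and 47.4 in DMSO and 52.7 and 62.9 CPM per kb in ONX-0914 libraries. The median over all 30 channel genes was -0.16 (8 above and 22 below 0), and over all genes tested it was -0.0032. The channel gene median was -0.26 without DMSO replicate 2 and -0.0704 without DMSO replicate 3. The direction was not particular to the channel genes. The 30 tested partner genes also had 8 above and 22 below 0, with a median of -0.0664.

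Between ONX-0914 and DMSO, which share the injections, edgeR called none of the 30 genes, beside 6 DEG among all genes (0.0456%), with 6 channel genes at an unadjusted p under 0.05 against 14.7% of all genes. DESeq2 called Cacna1g among the 26 channel genes to which it gave an adjusted p, with 5 at an unadjusted p under 0.05, where it called 1.86% of all genes. Limma voom called 0, with 5 at an unadjusted p under 0.05. Without the filter on low counts, edgeR called Cacna1g, beside 1.11% of all genes. The fitted Log2FC had a median of 0.21, with 18 genes above and 12 below 0, and the median of all genes was 0.05. The ONX-0914 libraries are the same in this comparison and in that with control.

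The partner genes comprised 34 genes, of which 30 were tested. Their products bind or traffic these channels, share the role of the TARPs, or belong to the sodium leak channel (Nalcn, Unc79 and Unc80). None was a DEG between ONX-0914 and control in edgeR, with 10 at an unadjusted p under 0.05, where 18.6% of all genes were, and 18 above and 12 below 0. DESeq2 called Shisa9, beside 2.95% of all genes. Against DMSO, edgeR called none after ONX-0914, with 10 at an unadjusted p under 0.05, where 14.7% of all genes were, and DESeq2 called Rem2, beside 1.86% of all genes. Between DMSO and control, edgeR called none, beside 0.0152% of all genes. There were 0 at an unadjusted p under 0.05, where 2.65% of all genes were, and 8 lay above and 22 below 0. The largest positive differences were those of Cacna2d4, Shisa9 and Cacna2d2, and the largest negative ones those of Rem2, Fgf13 and Fgf11. Shisa9, an auxiliary AMPA receptor subunit, was at 19.2, 18.5 and 24.1 CPM in control, 28.9 and 19.9 CPM in DMSO and 45.1 and 43.5 CPM in ONX-0914 libraries, with a Log2FC of 1.10 (SE 0.223, FDR = 0.0865). The ONX-0914 libraries lay above all others and close together. The alpha2-delta genes, whose products act in the trafficking of Cav channels, included Cacna2d2 at 62.6 and 26.2 CPM with ONX-0914 and 22.4 to 27.1 CPM in control (Log2FC 0.83, SE 0.349, FDR = 0.257), and Cacna2d4 with 2 to 38 counts per library (Log2FC 1.42, SE 0.620, FDR = 0.270). Rem2, a small GTPase that binds Cav beta and restrains the channel, was at 31.6, 27.4 and 22.5 CPM in control, 37.1 and 26.7 CPM in DMSO and 9.77 and 16.1 CPM in ONX-0914 libraries (Log2FC -1.03, SE 0.288, FDR = 0.146). Both ONX-0914 libraries were below all others. Of the intracellular fibroblast growth factors that bind the C terminus of Nav channels, Fgf13 was at 114 and 192 CPM with ONX-0914. It was at 240 to 278 CPM in control and 263 and 280 CPM in DMSO libraries (Log2FC -0.73, SE 0.233, FDR = 0.176). Fgf11 was at 22.3 and 13.8 CPM with ONX-0914, 25.5 to 28.4 CPM in control and 22.2 and 30.6 CPM in DMSO libraries (Log2FC -0.61, SE 0.265, FDR = 0.268). For Fgf11, DMSO replicate 2 thus lay between the ONX-0914 libraries.

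Since the ONX-0914 group held 2 unlike libraries, each was also left out in turn. The single library that remained was then assumed to vary like those of the other groups. Without replicate 1, 17 channel genes were called against control, beside 51.3% of all genes, and without replicate 2, 18 were called, beside 18.8% of all genes. Against DMSO, 14 were called without replicate 1, beside 46.4% of all genes, and 18 without replicate 2, beside 16.8%. Cacng7 had a Log2FC of 0.74 without replicate 1 and 0.84 without replicate 2, and Cacng8 one of -0.78 and -1.79, both against control.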

How the data were processed

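The authors isolated total RNA from hippocampus (RIN not less than 8), prepared directional libraries, sequenced them as 100-base single-end reads and deposited raw counts per Ensembl gene identifier for 7 libraries. The submitters' processing notes name Trimmomatic 0.39, STAR 2.7.3a, featureCounts 2.00 and the build GRCm39, with no role given. The strand setting and the annotation release are not given in the sources used here. Symbols, exon lengths, neighbouring genes and sequences came from GENCODE M21, which is built on GRCm38, so no coordinates are given. It matched 52135 of 55416 identifiers (99.8% of counts). Lines of unassigned reads, 4.75% to 6.49% without a gene and 3.75% to 3.92% ambiguous, stayed out of library sizes and tests.

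Tests were run with edgeR 4.0.16 in R 4.3.3 (filterByExpr, TMM factors of 0.966 to 1.103, glmQLFit and glmQLFTest over all 7 libraries with 1 mean per group, Benjamini-Hochberg adjustment over 13152 genes, FDR threshold 0.05). The common dispersion was 0.249 as a coefficient of variation. Log2FC are those of the fit with a prior count of 0.125, and their SE come from its F statistics. The steps were tested on simulated counts.

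Named with full values were the 10 channel genes with the smallest p in ONX-0914 against control and the 3 with the smallest p in each other comparison (12 genes in all), and the 3 partner genes at either end of the Log2FC. Of the marker genes, the 2 most abundant of a list and those at 0 were to be named, and Neurod6, Pvalb and the markers named for lists that were split were chosen with their values known. The members and the lists were chosen with earlier results of these data known. Alternatives were DESeq2 1.42.0, voom of limma 3.58.1, RLE factors, no scaling beyond total counts, no filter, at least 10 counts in every library, a fit of 2 groups alone, mitochondrial genes left out, the replicate number as a block, each library left out and, chosen after seeing the data, the earlier form of the quasi-likelihood fit.

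Exons of 9 channel genes overlap a gene on the opposite strand: Cacna1a, Cacna1d, Cacna1h, Cacna1s, Cacnb1, Cacnb2, Cacnb4, Cacng2 and Scn9a. The results of 2 channel genes are not reported here, although they stay in the counts of genes.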

Additional observations from a re-analysis of the deposited data

How the results depend on the processing

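Against control, the number of channel genes called after ONX-0914 was 0 in the reported fit, beside 0.114% of all genes. It was 4 with DESeq2, beside 2.95% of all genes, and 5 without the filter on low counts, beside 2.15%. It also rose when either ONX-0914 library was left out, as given above with the shares of all genes. For partner genes the number was 0, 1 with DESeq2 and 1 without the filter, beside the same shares of all genes. It rose too when either ONX-0914 library was left out, where more of all genes were called as well. Against DMSO, channel genes called numbered 1 with DESeq2 and 1 without the filter, and 0 to 18 when 1 library was left out (14 without ONX-0914 replicate 1, beside 6106 of all 13152 genes, and 18 without replicate 2, beside 2215). Partner genes numbered 1 with DESeq2 and 0 to 20 when 1 library was left out. In DMSO against control, 2 channel genes were called with only the 2 groups in the fit, beside 150 of all 13152 genes, and 0 to 2 when 1 library was left out (2 without ONX-0914 replicate 1 and 2 without replicate 2, beside 145 and 149 of all genes). The causes were not tested. Deviations from the group mean correlated between -0.10 and 0.06 across libraries with the same replicate number. In a group of 2 libraries these deviations mirror each other, so they cannot tell whether the replicate numbers pair the libraries. With the replicate block, 0 channel genes were called in each comparison.

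The median Log2FC of the channel genes against control moved from -0.07 to -0.19 with limma voom and to 0.0900 with total counts alone, and lay between -0.0757 and 0.0597 when 1 library was left out, the latter without ONX-0914 replicate 1. Against DMSO it moved from 0.21 to 0.0656 with limma voom, 0.34 with total counts alone and 0.11 with the replicate block. Of the 12 genes with full values, Cacng4 and Scn4b changed sign against control, both without ONX-0914 replicate 1. Their Log2FC ran from -0.11 to 1.08 and from -0.0815 to 2.54 when 1 library was left out. All other settings kept the sign of each of the 12. Depth limits what can be said of Scn7a, Scn9a and Cacng6, with 3 to 81 counts per library.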
